A study of Homo sapiens with 14 samples.

Results

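WM9 melanoma cells that had been in the BRAF inhibitor PLX4720 for 96 h were compared with WM9 cells that had been in it for 72 h. The groups were taken from the sample labels: 2 arrays labelled 96 h and 2 arrays labelled 72 h, or 4 of the 14 arrays of the series. All 4 held RNA of the same established human melanoma cell line, kept in 10 µM PLX4720, and the series' design text calls the arrays of a group biological replicates. The other arrays held PLX4720 at 12, 24, 48 and 60 h, which entered the fit, and the solvent DMSO at 96 h, which did not, again with 2 arrays each. No DMSO array at 72 h was analysed here, so 24 further hours of drug and 24 further hours in culture cannot be told apart. In RNA from whole cultures, fewer cells of a kind and less RNA per cell cannot be told apart either, and 1 cell line is 1 genotype.

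BRAF is the kinase that feeds the MEK and ERK kinases, and PLX4720 blocks its activated form in melanoma. Melanoma cells held in such an inhibitor are known to slow their division, to take on more of the pigment cell programme and to acquire features of senescence, a lasting halt of division in which cells secrete cytokines, chemokines and proteases. Much of that secretion is known to be driven by the transcription factors NF-kappaB and C/EBP, with interleukin-1 acting upstream.

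The signals of the 47322 probes were background-corrected, put on the log2 scale and quantile normalized, and 12520 named genes were above background on at least 2 treated arrays. Median raw signals were 283 and 232 on the 96 h arrays and 297 and 246 on the 72 h arrays, and the share of probes above background was 38.6% and 37.5% at 96 h, against 39.4% and 37.8% in the 72 h cultures. With 2 arrays a group, their number is what limits how precise a value can be. Of 7 melanocyte markers, 7 were above background on at least 1 of the 4 arrays and 5 on all 4. Of the markers of other cell types with a probe, 4 of 8 fibroblast, 1 of 6 keratinocyte, 2 of 8 endothelial and 3 of 9 leukocyte markers were above background on any of the 4 arrays.

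Between 72 and 96 h, the cytokine genes IL1B, CXCL8, IL32 and IL6 and the pigment gene PMEL were among the 12 largest rises, while more genes fell than rose. By limma with Benjamini-Hochberg adjustment at 0.05 over all 22303 probes tested, 452 genes (3.61% of 12520) differed: 60 were higher at 96 h (0.479%) and 392 were lower (3.13%). The median fold was 1.78 among the genes that were higher and 1.9 among those that were lower, and 16 and 136 of them changed at least 2-fold. Over all 12520 genes the median log2 fold change was 0.05. In all 452 genes both 96 h arrays lay beyond both 72 h arrays, which was also the case for 3804 genes that were higher and 3161 that were lower without passing the test.

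Replicate numbers were taken as pairing the cultures across times, though the labels do not say what arrays of the same number shared. With the replicate as a block the same test called 1602 genes (12.8%). Of these, 464 were higher (3.71%) and 1138 lower (9.09%), among them all 60 and all 392. When 1 array was left out, its group held a single array, which was assumed to vary like the other treated groups. Without replicate 1 of 96 h, 3 genes were higher and 5 lower. Without replicate 2 of 96 h, replicate 1 of 72 h or replicate 2 of 72 h, 0 genes passed limma's adjusted threshold, while 2807, 2715 and 1825 had an unadjusted p under 0.05. In each of these 4 fits all 60 and all 392 genes kept their direction. That outcome was fixed in advance, since both 96 h arrays lay beyond both 72 h arrays in all of them. With the 4 arrays alone 0 passed and 2785 had an unadjusted p under 0.05. With the authors' deposited normalized values, 372 genes were higher and 990 lower. With median scaling in place of quantile normalization, 12 were higher and 307 lower, so that 3.76% of the calls were rises, against 13.3%. Of 79 named genes that passed, 48 kept the call with median scaling, 31 lost it and 0 changed direction.

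**Figure D1:**
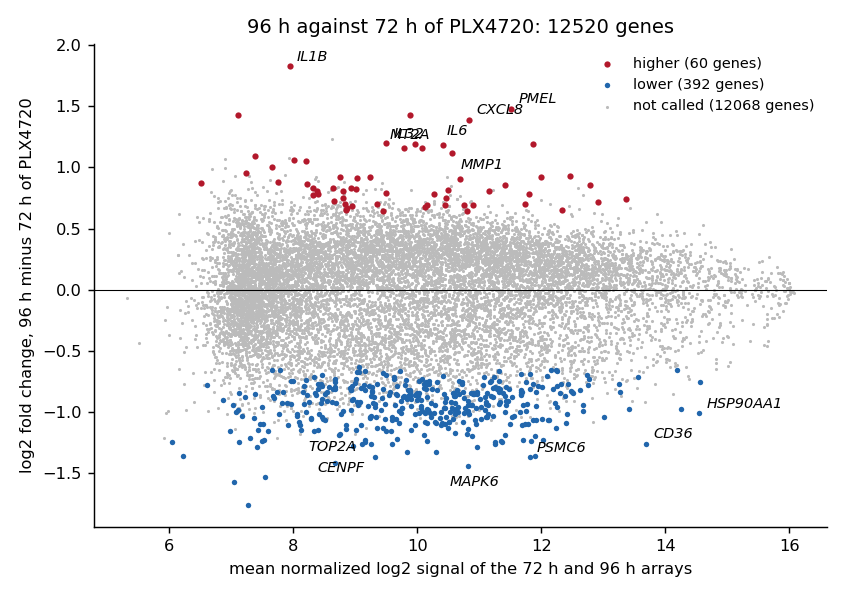
Log2 fold change of 96 h over 72 h of PLX4720 (y axis) against the mean normalized log2 signal of the 4 arrays (x axis), 1 point a gene for 12520 genes. Red points are the 60 genes called higher at 96 h, blue points the 392 called lower and grey points the rest; the blue points outnumber the red ones.

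Some of the largest rises were in cytokine genes. IL1B, which encodes the inflammatory cytokine interleukin-1 beta, had normalized log2 signals of 8.62 and 9.09 at 96 h, against 6.96 and 7.10 at 72 h. It was above background on both 96 h arrays and on neither 72 h array, so its level at 72 h is only a bound. The rise was at least 2.78-fold. The fitted log2 fold change was 1.83 (adjusted p = 0.0383, limma), and this p tests the fitted value and not the bound. CXCL8, a chemokine that draws neutrophils, read 11.16 and 11.89 at 96 h, against 10.05 and 10.22 at 72 h. The 96 h arrays were both above the 72 h arrays but further from each other than those were, and the log2 fold change was 1.39 ± 0.23 (SE, 2 arrays a group, adjusted p = 0.0319).

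IL6, a cytokine that signals through STAT3, read 10.88 and 11.15 at 96 h, against 9.77 and 9.90 at 72 h (log2 fold change 1.18 ± 0.20, adjusted p = 0.0319). IL32, another inflammatory cytokine, read 10.09 and 10.11 at 96 h, against 9.03 and 8.77 at 72 h (log2 fold change 1.20 ± 0.18, adjusted p = 0.0245). For both genes the gap between the times was wider than the gap between the replicates of either time. ICAM1, the adhesion receptor that leukocytes bind, read 11.20 and 11.08 at 96 h, against 10.29 and 10.18 at 72 h, a 1.88-fold rise (adjusted p = 0.0383). With median scaling IL32 and ICAM1 lost the call, while IL1B, CXCL8 and IL6 kept it.

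The summed raw signal of the 9 leukocyte markers was 23030 and 19590 at 96 h, against 20010 and 16940 in the 72 h cultures, most of it from CD68, a lysosomal protein (20430 and 17670 at 96 h, against 17390 and 14860 in the 72 h cultures). CD68 and the T cell adhesion receptor CD2 were above background on all 4 arrays and the monocyte receptor CD14 on 3, while PTPRC, CD3D, CD3E, LYZ, ITGAM and CSF1R were on none. All 4 arrays held RNA of the same melanoma cell line, and whether any other cells had a part in the cytokine signals was not tested.

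The promoters of 4 of these genes are shown since the genes rose together and each window holds letters of the NF-kappaB motif. They are the 250 bases before the RefSeq start site (GRCh38.p14, all on the plus strand). The motif searched was GGNNNTTCC on both strands, and its matches are in capitals. CXCL8 lies at chr4:73740319-73740568, with its match starting at position -91 from the start site. IL6 lies at chr7:22726950-22727199, with its match at -72. ICAM1 lies at chr19:10270870-10271119, with its match at -186. IL32 lies at chr16:3065153-3065402 and holds 3 matches, the first at -230.
CXCL8: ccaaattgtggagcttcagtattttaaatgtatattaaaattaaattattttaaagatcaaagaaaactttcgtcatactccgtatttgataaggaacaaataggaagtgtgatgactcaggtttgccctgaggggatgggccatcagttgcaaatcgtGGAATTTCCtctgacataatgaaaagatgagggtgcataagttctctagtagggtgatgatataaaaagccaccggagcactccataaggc
IL6: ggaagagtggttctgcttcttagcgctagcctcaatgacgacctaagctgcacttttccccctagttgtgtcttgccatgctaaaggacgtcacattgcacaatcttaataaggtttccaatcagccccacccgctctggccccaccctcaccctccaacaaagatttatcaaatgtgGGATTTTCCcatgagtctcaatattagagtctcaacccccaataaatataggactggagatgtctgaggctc
ICAM1: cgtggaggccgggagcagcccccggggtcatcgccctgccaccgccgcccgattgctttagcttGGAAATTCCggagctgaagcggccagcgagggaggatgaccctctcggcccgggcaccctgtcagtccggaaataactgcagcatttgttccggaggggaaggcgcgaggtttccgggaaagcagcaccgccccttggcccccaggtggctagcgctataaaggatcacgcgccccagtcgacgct
IL32: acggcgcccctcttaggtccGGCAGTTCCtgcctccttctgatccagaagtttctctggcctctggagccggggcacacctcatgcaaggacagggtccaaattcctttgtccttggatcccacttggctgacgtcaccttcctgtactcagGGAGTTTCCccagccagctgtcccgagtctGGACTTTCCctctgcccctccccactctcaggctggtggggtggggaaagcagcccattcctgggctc
The window of IL1B held no match, which says only that these letters are not in it. The letters are common: 17.1% of the 35116 promoters of this length in the table hold them, and 19.4% of those of 10075 tested genes. Of the 42 genes called higher that had an entry, 7 held them (16.7%), and of 327 called lower 55 did (16.8%). A match is a description of the letters and not of binding.

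**Figure D2:**
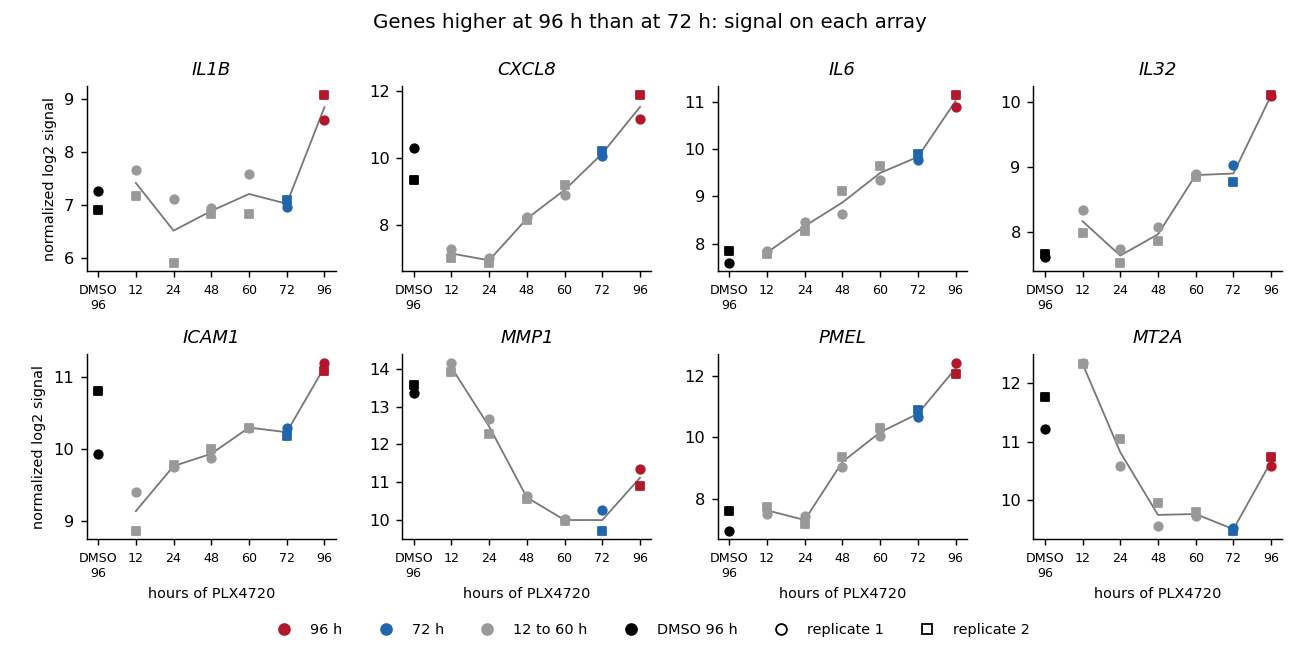
Normalized log2 signal (y axis) of 8 genes that were higher at 96 h, on each array, against hours of PLX4720 (x axis, with DMSO at 96 h at the left). Circles are replicate 1 and squares replicate 2, the grey line joins the means of the treated groups, and in each panel both 96 h points (red) lie above both 72 h points (blue).

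Of the 31 genes on a list of NF-kappaB targets, drawn up after values were seen, 24 were tested. Of these, 5 rose (IL1B, CXCL8, IL32, IL6 and ICAM1), or 20.8% against 0.479% of all genes, and 0 fell. A positive log2 fold change was seen in 22, with a median of 0.50 against 0.05 over all genes. With the replicate block 10 were higher (41.7%, against 3.71% of all genes) and 0 lower. CXCL1, a chemokine, read 8.29 and 9.39 at 96 h, against 8.07 and 7.75 at 72 h (adjusted p = 0.125). RELB, a subunit of NF-kappaB itself, had a log2 fold change of 0.68 (adjusted p = 0.0737, and 0.0351 with the replicate block), and the interferon regulatory factor IRF1 had 0.89 (adjusted p = 0.0868, and 0.0274 with the block). NFKB1, which encodes the p105 precursor of the p50 subunit, had 0.04 (adjusted p = 0.918). IL1A, the other interleukin-1 cytokine, read 8.99 and 9.42 at 96 h, against 9.66 and 9.61 at 72 h (adjusted p = 0.235). ICAM1, CXCL1, RELB, IRF1, NFKB1 and IL1A were named after their values were seen.

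Among 26 tested of 34 secreted factors known from senescent cells, 5 rose (19.2%, against 0.479% of all genes). In the same list 1 fell (3.85%, against 3.13%) and 20 did not pass, with a median log2 fold change of 0.36. The list shares IL1B, CXCL8, IL6 and ICAM1 with the NF-kappaB targets and adds MMP1, the collagenase that cuts fibrillar collagen. MMP1 read 11.34 and 10.90 at 96 h, against 10.28 and 9.72 at 72 h (log2 fold change 1.12 ± 0.23, adjusted p = 0.0388), and it lost the call with median scaling. The replicates of each time lay apart by nearly as much as the times did at their closest. CCL5, a chemokine for lymphocytes and monocytes named after its values were seen, had a log2 fold change of 0.90 (adjusted p = 0.0532, and 0.0187 with the block), and its second probe pointed the other way. IGFBP5, a binding protein for insulin-like growth factors, was the member that fell: it read 8.34 and 8.13 at 96 h, against 9.03 and 9.08 at 72 h (log2 fold change -0.81 ± 0.18, adjusted p = 0.0403). The protease inhibitor TIMP1, the vascular growth factor VEGFA and the stromelysin MMP3, named after their values were seen, did not pass, at 0.03 (adjusted p = 0.911), 0.04 (adjusted p = 0.959) and 0.04 (adjusted p = 0.925) on the log2 scale.

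Single genes of the acute phase and of complement rose as well, all named after their values were seen. CEBPD, a transcription factor of the acute phase response, read 12.31 and 12.60 at 96 h, against 11.49 and 11.59 at 72 h, a 1.90-fold rise (adjusted p = 0.0383). CEBPB, its relative, read 14.54 and 14.72 at 96 h, against 14.38 and 14.43 at 72 h (adjusted p = 0.391). The complement protease C2 read 8.79 and 8.66 at 96 h, against 7.77 and 7.58 at 72 h (log2 fold change 1.05 ± 0.15, adjusted p = 0.0245). C1R, a protease that starts the classical complement pathway, rose 1.89-fold (adjusted p = 0.0392), and AGT, the precursor of angiotensin, 1.90-fold (adjusted p = 0.0482). With median scaling C1R and AGT lost the call, while CEBPD and C2 kept it. In lists drawn up after values were seen, 2 of 11 complement genes rose (18.2%) and 0 fell, with a median of 0.08. Of 8 acute phase genes 2 rose (25%) and 0 fell, with a median of 0.36. Over all genes 0.479% rose.

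The pigment protein PMEL, which forms the fibrils of the melanosome, had the largest rise among genes above background at both times. It read 12.43 and 12.06 at 96 h, against 10.66 and 10.88 at 72 h (log2 fold change 1.48 ± 0.20, adjusted p = 0.0245), from 1 probe. Its mean signal was 7.31, 9.20, 10.16, 10.77 and 12.25 at 24, 48, 60, 72 and 96 h. PMEL was the 1 riser among 16 tested pigment genes (6.25%, against 0.479% of all genes). Of the 16, 2 fell (12.5%, against 3.13% of all genes) and 13 did not pass, with a median of 0.04. TYRP1, a melanin enzyme, read 12.62 and 12.36 at 96 h, against 12.21 and 12.18 at 72 h (adjusted p = 0.42), and MLANA had a log2 fold change of 0.13 (adjusted p = 0.724). The members that fell were LYST, which acts in the traffic of lysosomes and melanosomes, with a log2 fold change of -1.24 (adjusted p = 0.047), and ATP7A, the pump that brings copper to tyrosinase, with -1.20 (adjusted p = 0.0339); LYST lost the call with median scaling. MITF, the master regulator of the lineage, read 11.31 and 11.08 at 96 h, against 11.63 and 11.78 at 72 h (log2 fold change -0.50, adjusted p = 0.126, and 0.0479 with the block). Of 22 lineage regulators tested 0 passed, with a median of -0.05; SOX10, which specifies the lineage, had 0.21 (adjusted p = 0.493). With the block 1 lineage gene was higher (4.55%, against 3.71% of all genes) and 2 lower (9.09%, the same share as of all genes).

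Of the other named rises, only ENO2 and VGF shared a list, that of synaptic and neuronal genes. In it 2 of 20 tested genes rose (10%, against 0.479% of all genes). In the same list 1 gene fell (5%, against 3.13% of all genes), and the median was 0.04. With the block 3 of its genes were higher (15%, against 3.71% of all genes) and 1 lower (5%, against 9.09%). MT2A, a zinc-binding metallothionein, read 10.58 and 10.74 at 96 h, against 9.53 and 9.48 at 72 h (log2 fold change 1.16 ± 0.19, adjusted p = 0.0319). It was the 1 of 5 metallothionein and zinc genes to pass (20%, against 0.479% of all genes). DEPP1, a gene known as a target of FOXO factors, read 12.62 and 12.29 at 96 h, against 11.33 and 11.20 at 72 h (log2 fold change 1.19 ± 0.16, adjusted p = 0.0245). For both genes every 96 h value exceeded every 72 h value by more than the replicates differed. GAPDHS, the form of glyceraldehyde-3-phosphate dehydrogenase known from sperm, rose 2.29-fold (adjusted p = 0.0399), and ENO2, the neuronal enolase, 1.77-fold (adjusted p = 0.0394). ENO2 was the 1 of 24 glycolysis genes to pass (4.17%, against 0.479% of all genes that rose), and it lost the call with median scaling. The median of the list was 0.21, and 3 of its genes were higher with the block (12.5%, against 3.71% of all genes). The lactate dehydrogenase LDHA, the glucose carrier SLC2A1 and the hexokinase HK2 had log2 values of 96 h over 72 h of 0.08 (adjusted p = 0.781), 0.01 (adjusted p = 0.977) and 0.17 (adjusted p = 0.519).

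CEMIP, which takes part in the breakdown of hyaluronan, read 10.18 and 11.02 at 96 h, against 9.05 and 9.28 at 72 h, a 2.70-fold rise (adjusted p = 0.0319). At 96 h both PLX4720 arrays lay below the DMSO arrays, which read 13.30 and 13.11. CPA4, a carboxypeptidase, read 10.27 and 10.45 at 96 h, against 9.28 and 9.12 at 72 h (log2 fold change 1.16 ± 0.16, adjusted p = 0.0245). The cytidine deaminase CDA rose 2.09-fold (adjusted p = 0.0245), and VGF, a precursor of neuropeptides, 1.81-fold (adjusted p = 0.0319). FDCSP, a small secreted peptide, and FGF11, of the fibroblast growth factor family, were above background at 96 h and not at 72 h. They rose at least 1.37-fold and at least 1.46-fold (adjusted p = 0.0319 and 0.0394 for the fitted rises). CCN5, a secreted matrix-associated protein, read 13.10 and 12.73 at 96 h, against 12.09 and 11.88 at 72 h, a 1.91-fold rise (adjusted p = 0.0352). The adenosine deaminase ADA rose 1.67-fold (adjusted p = 0.0441) and the glutamine synthetase GLUL 1.78-fold (adjusted p = 0.0371); FDCSP, FGF11, CCN5, ADA and GLUL were named after their values were seen. With median scaling CPA4, VGF, FGF11, CCN5, ADA and GLUL lost the call, while CEMIP, CDA and FDCSP kept it.

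Among genes that report the activity of ERK, of 25 tested of 30 output and feedback genes, 1 rose (4%, against 0.479% of all genes). In this list 0 fell, 21 had a positive log2 fold change, and the median was 0.28, against 0.05 over all genes. Lists with 0 members called had medians as high, such as 0.28 for MHC class I genes and 0.32 for genes of sterol efflux. With the replicate block 6 ERK genes were higher (24%, against 3.71% of all genes) and 0 lower. The riser was ETV5, an ETS transcription factor, which read 9.13 and 9.44 at 96 h, against 8.56 and 8.64 at 72 h (log2 fold change 0.68 ± 0.15, adjusted p = 0.0441) and lost the call with median scaling. Both 96 h values lay below the DMSO arrays, at 12.96 and 13.18. The feedback inhibitors SPRY2 and SPRY4 did not pass, at 0.45 (adjusted p = 0.263) and 0.62 (adjusted p = 0.216) on the log2 scale, and SPRY4 was not above background at 72 h. The phosphatase DUSP6 had -0.20 (adjusted p = 0.507), the cell cycle regulator CCND1 -0.03 (adjusted p = 0.921) and MYC 0.28 (adjusted p = 0.29). TMEM158, a membrane protein known as induced by RAS signalling and named after its values were seen, rose 1.73-fold (adjusted p = 0.0394) and lost the call with median scaling.

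**Figure D3:**
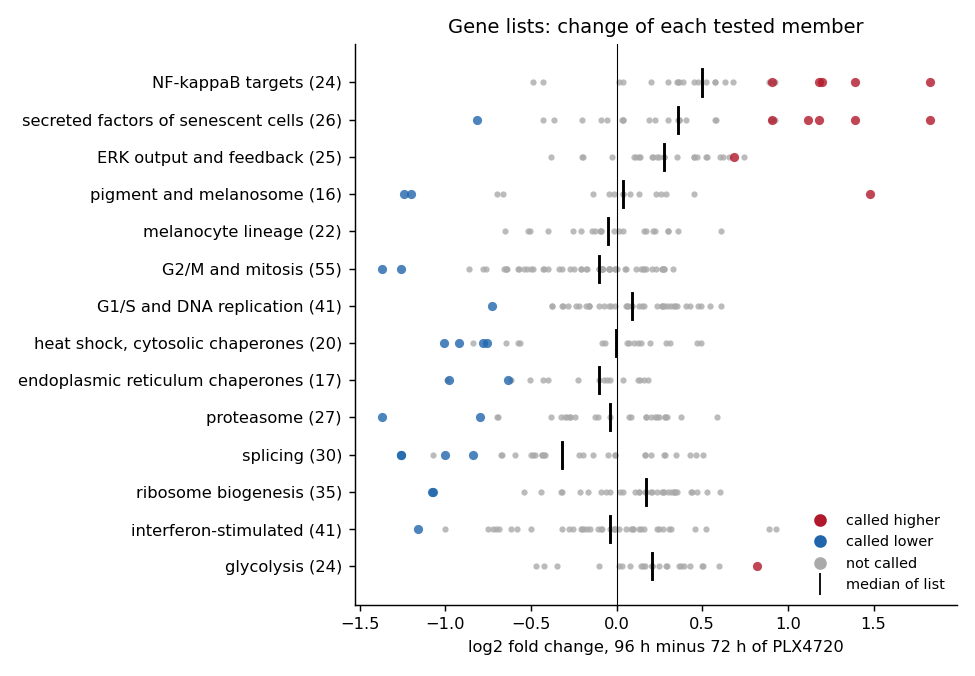
Log2 fold change of 96 h over 72 h of PLX4720 (x axis) for each tested member of 14 gene lists (rows, with the number tested). Red and blue points are members called higher and lower, grey points members not called, and black bars the medians. Among these 14 of 58 lists the medians run from -0.32 for splicing factors to 0.50 for NF-kappaB targets. Both of those lists were drawn up after values were seen. Lower medians occur in lists not shown, such as -0.46 for 4 fibroblast markers and -0.40 for 12 homologous recombination and Fanconi genes.

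The share of mitosis genes that fell was close to that of all genes, but CENPF and TOP2A were among the larger falls. CENPF, a kinetochore protein of dividing cells, read 8.62 and 8.65 at 96 h, against 9.73 and 10.27 at 72 h (log2 fold change -1.37 ± 0.20, adjusted p = 0.0245). TOP2A, the topoisomerase that untangles replicated chromosomes, read 8.46 and 8.51 at 96 h, against 9.59 and 9.90 at 72 h (log2 fold change -1.26 ± 0.18, adjusted p = 0.0245). The 96 h replicates of each gene nearly coincided, below both arrays at 72 h. NCAPG, a condensin subunit, was above background on both 72 h arrays and neither 96 h array. It fell at least 1.87-fold (adjusted p = 0.0234 for the fitted fall). SMC4, the core condensin ATPase, fell 1.72-fold (adjusted p = 0.0394) and ANLN, which acts in the cleavage furrow, 1.73-fold (adjusted p = 0.0371); NCAPG, SMC4 and ANLN were named after their values were seen, and SMC4 and ANLN lost the call with median scaling.

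CENPF and TOP2A were the 2 of 55 tested G2 and mitosis genes to pass, or 3.64% against 3.13% of all genes; 0 rose, 39 of the 55 had a negative log2 fold change and the median was -0.10. With the replicate block 9 were lower (16.4%, against 9.09% of all genes) and 0 higher. CCNB1, the cyclin of mitosis, and the mitotic kinases AURKB and PLK1, named after their values were seen, had -0.04 (adjusted p = 0.906), 0.28 (adjusted p = 0.448) and -0.25 (adjusted p = 0.654). Of 41 tested replication and G1/S genes 1 fell (2.44%, against 3.13% of all genes), and the median was 0.09. This was CDC7, the kinase that fires replication origins, with 8.68 and 8.61 at 96 h, against 9.36 and 9.39 at 72 h (adjusted p = 0.04). CDC7 lost the call with median scaling. The CDK inhibitor CDKN1A read 15.46 and 15.45 at 96 h, against 15.30 and 15.52 at 72 h (adjusted p = 0.892). LMNB1, the lamin B1 gene whose loss marks senescence, had 0.17 (adjusted p = 0.649), and MKI67 was not above background on any of the 4 arrays.

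Chaperone genes did not move as 1 class. HSP90AA1, the inducible cytosolic HSP90, read 14.01 and 14.08 at 96 h, against 14.95 and 15.15 at 72 h (log2 fold change -1.01 ± 0.15, adjusted p = 0.0245). HSP90B1, its counterpart in the endoplasmic reticulum, read 13.71 and 13.82 at 96 h, against 14.63 and 14.85 at 72 h (log2 fold change -0.98 ± 0.17, adjusted p = 0.0319). In both genes the times lay much further apart than the replicates of either time. For HSP90AA1 the DMSO replicates, which were not in the fit, lay further apart than the times did. CHORDC1, a partner of HSP90, fell by 0.92 on the log2 scale (adjusted p = 0.0444), HSPH1, of the HSP110 class, by 0.78 (adjusted p = 0.0394) and HSPD1, the mitochondrial HSP60, by 0.76 (adjusted p = 0.0441). With HSP90AA1 they were the 4 of 20 heat shock genes to pass (20%, against 3.13% of all genes), 0 rose and the median was -0.0036. With the block 7 were lower (35%, against 9.09% of all genes) and 1 higher (5%, against 3.71%). HSP90AB1, the constitutive HSP90, had 0.13 (adjusted p = 0.66), and HSPA1A, the inducible HSP70, 0.20 (adjusted p = 0.557). HSPH1, HSPD1, HSP90AB1 and HSPA1A were named after their values were seen, and CHORDC1, HSPH1 and HSPD1 lost the call with median scaling.

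Some RNA-handling genes fell. SF3B1, a core subunit of the splicing factor that binds branch points, read 10.63 and 10.61 at 96 h, against 11.74 and 12.02 at 72 h (log2 fold change -1.26 ± 0.22, adjusted p = 0.0319), and both of its probes were lower. In a list of splicing factors drawn up after values were seen, 4 of 30 fell (SF3B1, NKTR, PNISR and SRSF6) and 0 rose. The share that fell was 13.3%, against 3.13% of all genes, and the median was -0.32. With the replicate block 7 were lower (23.3%, against 9.09% of all genes). CLK1, a kinase that phosphorylates splicing factors, fell 2.26-fold (adjusted p = 0.0363). The nucleolar proteins NOP58 and DDX21, both needed to make ribosomes, fell by 1.08 and 1.07 on the log2 scale (adjusted p = 0.032 and 0.0331, limma). They were 2 of 35 ribosome biogenesis genes (5.71%, against 3.13% of all genes), among which 0 rose and the median was 0.17. MTREX, a helicase that works with the nuclear RNA exosome, fell 2.52-fold (adjusted p = 0.0245), and XPO1, the exportin that carries proteins and RNA out of the nucleus, 2.10-fold (adjusted p = 0.0319). Of 65 ribosomal protein genes 0 passed in either direction, and the median was 0.15. CLK1 and XPO1 were named after their values were seen.

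Among genes of protein breakdown, PSMC6, an ATPase of the proteasome cap, read 10.94 and 11.32 at 96 h, against 12.38 and 12.62 at 72 h (log2 fold change -1.37 ± 0.20, adjusted p = 0.0245), and both of its probes were lower. PSMA3, of the proteasome core, fell 1.74-fold (adjusted p = 0.0394). They were the 2 of 27 tested subunits to pass (7.41%, against 3.13% of all genes), 0 rose, and the median was -0.04. With the block 4 were lower (14.8%, against 9.09% of all genes). SEL1L, part of the machinery that clears misfolded proteins from the endoplasmic reticulum, fell 1.55-fold (adjusted p = 0.0499). PSMA3 and SEL1L lost the call with median scaling. HSP90B1 and SEL1L were the 2 of 17 genes of the endoplasmic reticulum list to pass (11.8%, against 3.13% of all genes). In that list 0 rose, and the median was -0.10.

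CD36 and single members of several metabolic lists fell. CD36, the fatty acid receptor, read 13.03 and 13.08 at 96 h, against 14.17 and 14.47 at 72 h (log2 fold change -1.26 ± 0.19, adjusted p = 0.0245). BNIP3L, a receptor for the clearance of mitochondria and the 1 of 35 autophagy genes to pass, read 11.21 and 11.07 at 96 h, against 12.17 and 12.33 at 72 h (log2 fold change -1.11 ± 0.18, adjusted p = 0.0319). Replicates of both genes lay close together at each time. DLD, the shared subunit of the mitochondrial 2-oxoacid dehydrogenases, fell 2.06-fold (adjusted p = 0.0371) and ACADM, an enzyme of fatty acid oxidation, 1.70-fold (adjusted p = 0.0463). GABPA, a transcription factor for nuclear genes of mitochondria, fell 1.99-fold (adjusted p = 0.0373), while the coactivator PPARGC1A had a log2 fold change of -0.46 (adjusted p = 0.156). DLD was 1 of 20 genes of its list (tricarboxylic acid cycle), ACADM 1 of 19 (fatty acid oxidation) and GABPA 1 of 16 (regulators of mitochondrial biogenesis), so that 2.86%, 5%, 5.26% and 6.25% of the autophagy list and these lists fell, against 3.13% of all genes. ACADM and GABPA lost the call with median scaling. Of 34 complex I genes, 37 genes of complexes II to V and 73 mitochondrial ribosomal protein genes 0 passed, and their medians were 0.18, 0.14 and 0.16. HMGCS1, an enzyme of sterol synthesis, had -0.82 (adjusted p = 0.059, and 0.0201 with the block), and APOE, which carries sterols out of cells, 0.67 (adjusted p = 0.0534, and 0.0265 with the block).

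The largest falls included genes that shared no list. MAPK6, an atypical MAP kinase, had the largest fall among genes above background at both times and read 9.95 and 10.23 at 96 h, against 11.18 and 11.87 at 72 h (log2 fold change -1.44 ± 0.26, adjusted p = 0.0339). TCN1, a vitamin B12 carrier, read 8.12 and 7.81 at 96 h, against 9.27 and 9.51 at 72 h (log2 fold change -1.42 ± 0.18, adjusted p = 0.0234). CD96, an adhesion receptor known from lymphocytes, read 9.61 and 9.67 at 96 h, against 11.05 and 10.89 at 72 h (log2 fold change -1.33 ± 0.15, adjusted p = 0.0195). TCN1 and CD96 had also fallen from 48 to 72 h, by 1.44 and 1.14 on the log2 scale (adjusted p = 0.0192 and 0.0192). SERPINI1, neuroserpin, fell 2.56-fold (adjusted p = 0.0444), STAG1, a cohesin subunit, 2.40-fold (adjusted p = 0.032), MOSPD2, a tether between membranes, 2.44-fold (adjusted p = 0.0326) and the small nucleolar RNA SNORA25 2.42-fold (adjusted p = 0.0281).

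The fitted falls of SCRG1 and MLH3 were larger (adjusted p = 0.0182 and 0.0195, limma). Neither gene was above background at 96 h, which leaves falls of at least 1.68-fold and at least 1.34-fold. Both were named after their values were seen. IFI44L, an interferon-stimulated gene, likewise fell at least 1.11-fold (adjusted p = 0.0399 for the fitted fall). It was the 1 of 41 genes of its list to pass (2.44%, against 3.13% of all genes). Its second probe pointed the other way, and it lost the call with median scaling. FAP, a protease known from fibroblasts, was also not above background at 96 h and fell at least 1.82-fold (adjusted p = 0.0371 for the fitted fall). It was the 1 of 4 fibroblast markers tested to pass (25%, against 3.13% of all genes). The summed raw signal of the 8 fibroblast markers was 10120 and 7225 at 96 h, against 9794 and 7631 in the 72 h cultures, most of it from COL1A2 (7702 and 5239 at 96 h, against 6608 and 4968 in the 72 h cultures). COL1A2, DCN and LUM were above background on all 4 arrays, FAP on both 72 h arrays, and COL1A1, COL3A1, PDGFRA and THY1 on none.

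**Figure D4:**
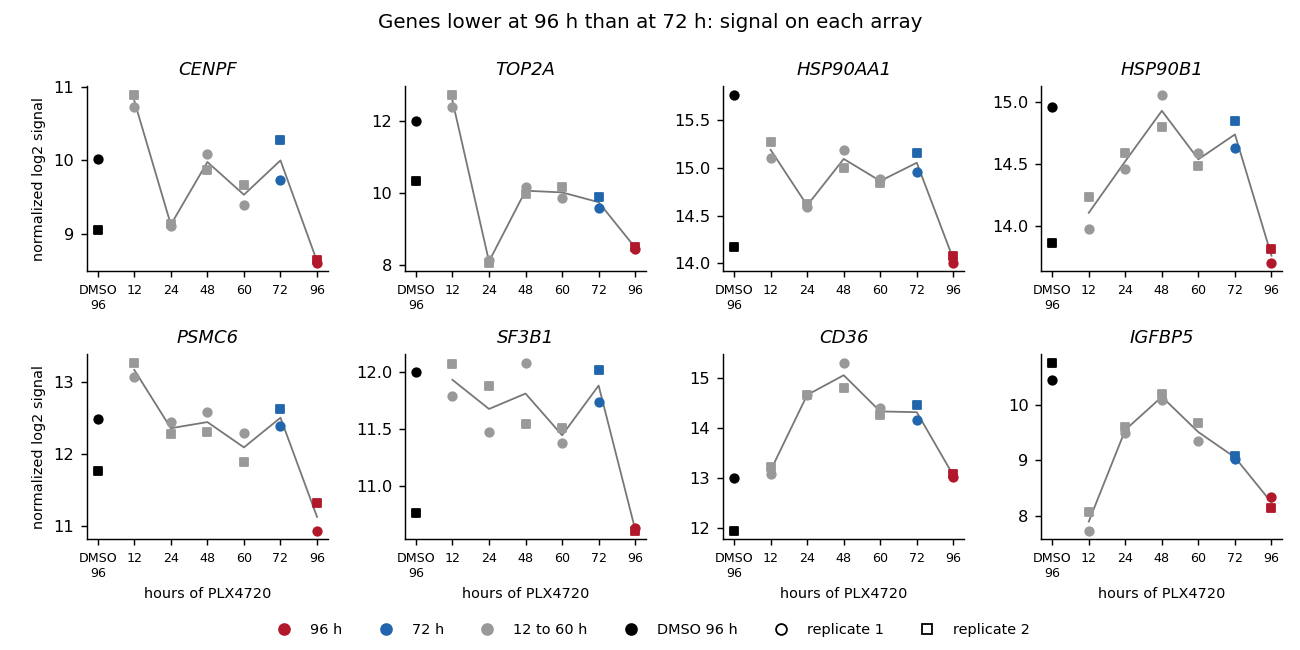
Normalized log2 signal (y axis) of 8 genes that were lower at 96 h, on each array, against hours of PLX4720 (x axis, with DMSO at 96 h at the left). Circles are replicate 1 and squares replicate 2; both 96 h points (red) lie below both 72 h points (blue) in each panel, and the DMSO replicates (black) lie far apart in most panels but not for IGFBP5.

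The genes that fell also separated the DMSO replicates, which took no part in the test. Over the 392 genes, the median difference of replicate 1 minus replicate 2 in DMSO was 1.11 on the log2 scale, against -0.10 over all genes. Of them, 218 (55.6%) were over 1 log2 unit higher in replicate 1, against 6.64% of all genes. The 60 genes called higher went the other way, with a median of -0.40. Of these 60, 16.7% were higher in DMSO replicate 1, against 98.2% of the 392 genes and 43.6% of all genes. HSP90AA1 read 15.76 and 14.17 in the DMSO replicates, SF3B1 12.00 and 10.76 and MAPK6 11.94 and 10.44. Within treated groups the median difference of the 392 genes was between -0.19 and 0.26. The DMSO replicates lay within 0.5 of each other for 48 of the 392 (12.2%), among them CD96, TCN1, CHORDC1, PSMA3 and IGFBP5. That share was 63.9% over all genes and 53.3% among the 60 genes called higher. The 392 genes were also long: their median span on the chromosome was 58.5 kb, against 9.12 kb for the 60 genes called higher and 27.9 kb for all genes. What part gene length, or whatever separated the DMSO replicates, had in the falls and the rises was not tested.

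**Figure D5:**
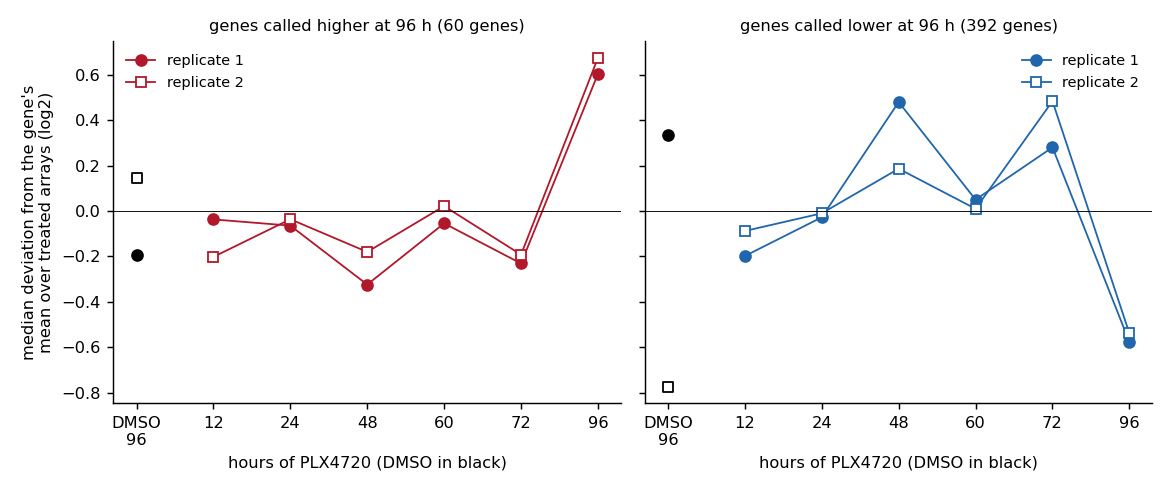
Median over genes of the deviation from each gene's mean over the 12 treated arrays (y axis, log2) on each array (x axis), for the 60 genes called higher and the 392 called lower at 96 h. The genes called lower sat at -0.577 and -0.539 on the 96 h arrays, against 0.281 and 0.485 on the 72 h arrays, and at 0.334 and -0.775 in the DMSO replicates.

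Whether the last step differed from earlier ones was tested directly. From 48 to 72 h, 18 genes (0.144%) changed, and 40 (0.319%) with the replicate block. The difference between the step from 72 to 96 h and that from 48 to 72 h passed for 0 genes (0%) with limma and 0 with the block, while 1275 had an unadjusted p under 0.05. It passed for 1 gene with a trended and robust limma fit, for 1 with no background correction, for 1 with the authors' deposited normalized values, and for 555 with those values and the block. The 72 h arrays enter both steps. PMEL and CXCL8 had already risen from 48 to 72 h, by 1.57 and 1.94 on the log2 scale (adjusted p = 0.0192 and 0.0192), and the later step minus the earlier one was -0.10 and -0.55 (adjusted p = 0.952 and 0.701).

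The step from 24 to 48 h shares no array with the last one and changed 1073 genes (8.57%), or 2129 (17%) with the block. The later step minus the earlier one passed for 2066 genes (16.5%), and for 3593 (28.7%) with the block. TOP2A rose by 1.96 on the log2 scale from 24 to 48 h (adjusted p = 0.00034) and fell after 72 h, a difference of -3.22 ± 0.26 (adjusted p = 0.000752). CENPF did the same, with a rise of 0.85 in the earlier step (adjusted p = 0.027) and a difference of -2.22 ± 0.28 (adjusted p = 0.00311). SERPINI1, PTPRZ1, ATP7A and LYST differed in the same direction, by -3.00, -2.61, -2.32 and -2.37 (adjusted p = 0.0042, 0.0013, 0.00358 and 0.00735). In the other direction, MMP1, CPA4 and MT2A fell from 24 to 48 h, with log2 fold changes of -1.88, -2.14 and -1.07 (adjusted p = 0.00145, 0.000127 and 0.00874) and rose after 72 h, so that their steps differed by 2.99, 3.29 and 2.23 (adjusted p = 0.00185, 0.00053 and 0.00256). For IL6 and CXCL8 the differences of 0.68 and 0.15 did not pass (adjusted p = 0.129 and 0.792).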

How the data were processed

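Gene expression was measured on 14 one-colour Illumina bead arrays, 2 for each of 7 groups, grouped by the arrays' labels. The authors deposited unnormalized probe intensities on a linear scale (per the file headers) for 47322 probes, beside 28 empty columns. The authors also deposited a normalized table, whose values are on the log2 scale and quantile normalized, as judged from the values; it was used as an alternative. The scanner software is not given in the sources used here.

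From the intensities, normexp background correction with an offset of 16, log2 and quantile normalization over the 14 arrays were computed with limma 3.58.1 in R 4.3.3. No detection p-values were used: a probe was taken as above background where its signal exceeded the mode of its array by more than a normal curve fitted to the spread below the mode reaches in its top 1%. The 22303 probes above background on at least 2 of the 12 treated arrays were tested. Of all probes, 30113 carry 1 gene symbol, 8 several and 17201 none in the platform annotation, and 30074 matched RefSeq; a gene was read from its brightest probe. limma's moderated test (lmFit and eBayes, two-sided) was fitted over the 12 treated arrays with 6 residual and 4.74 prior degrees of freedom, and p-values were Benjamini-Hochberg adjusted over all probes tested, at 0.05. Where a group had no array above background, the fold is a bound: the bright group's mean over the dim group's mean of, per array, the higher of the lowest signal above background and the probe's own. The adjusted p printed for such a gene is that of the fitted difference and does not test the bound.

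Replicate numbers were taken as pairing the cultures, because in all 15 pairs of treated times the replicate differences correlated across genes. The r was between 0.158 and 0.427, and 0.351 for 72 and 96 h. Replicate 1 also had the higher median raw signal at every treated time. Paired cultures and a shared batch of arrays cannot be told apart from these values. The fit without the replicate block is the main one. Further alternatives changed the normalization, background correction, filter, probe rule, arrays fitted and error model. The test of 96 h against 72 h was checked on simulated log2 values with known changes and independent noise on each array. Background correction, normalization, the filter, the replicate block and the tests between steps were not checked in this way. Genes are named as the 12 largest rises and falls, the 2 largest called members each way of each gene list (or its largest change), a set of marker genes, the 6 largest differences between steps each way, and further genes named after their values were seen. The members and lists were chosen with earlier results of these data known. Promoter sequences are from RefSeq. Some genes are not analysed here.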

Additional observations from a re-analysis of the deposited data

Results flagged for a closer look

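The following values differed between the step from 72 to 96 h and the step from 24 to 48 h, by limma with Benjamini-Hochberg adjustment over all probes, and are given as the later log2 step minus the earlier one. The difference passed for 2066 genes. It was largest upwards for CPA4 at 3.29, MMP1 at 2.99, TBXAS1 at 2.99, HKDC1 at 2.99, ELAPOR1 at 2.87 and SLC14A1 at 2.82. Downwards it was largest for TOP2A at -3.22, SERPINI1 at -3.00, NPTX1 at -2.90, CNGA1 at -2.65, PTPRZ1 at -2.61 and PBK at -2.60. In the later step itself CPA4, MMP1, TOP2A, SERPINI1 and PTPRZ1 passed the test, and the other 7 genes did not. With the replicate block TBXAS1 (adjusted p = 0.0299), ELAPOR1 (0.0375), CNGA1 (0.0326) and PBK (0.0356) passed it too. HKDC1 and CNGA1 were close to background, each above it on 1 of the 4 arrays at 72 and 96 h.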

How the results depend on the processing

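The number of genes called between 96 and 72 h depended strongly on the settings. The direction of the 60 and 392 called genes was kept wherever they were tested. It could not change where only the arrays fitted, the block, the error model or the adjustment differed from the main setting. The main setting called 60 genes higher, 392 lower and 604 probes. The authors' deposited table gave 372 higher, 990 lower and 1832 probes, no background correction 279, 913 and 1612, a filter for probes above background on all 4 arrays 258, 864 and 1517, and a trended and robust fit 204, 905 and 1496. An offset of 50 gave 94 higher, median scaling 12 higher, the mean of a gene's probes 228 higher and 763 lower, and adjustment over 1 probe a gene 113 and 592. No filter on dim probes gave 0, 0 and 1 probe, the 4 arrays alone 0, 0 and 0, and all 14 arrays 0, 4 and 4 probes. Leaving out 1 array of either group gave 0 to 3 genes higher, 0 to 5 lower and 0 to 12 probes. The replicate block gave 464 higher, 1138 lower and 2401 probes. Settings chosen after seeing the data gave 0, 0 and 0 for the 48 to 96 h arrays alone. With the block they gave 112, 1652 and 2658 with median scaling, 495, 1116 and 2400 with cyclic loess, 0, 0 and 0 with the 4 arrays alone, and 1569, 1991 and 5294 with the authors' table. For the step from 72 to 96 h minus that from 48 to 72 h, 0 genes passed in the main setting and with the block, 1 with the authors' table, with no background correction and with a trended and robust fit, 0 to 1 with 1 array left out, and 555 with the block and the authors' table. Against the step from 24 to 48 h, 2066 passed, with 1082 under median scaling, 185 with no filter on dim probes, 415 with all 14 arrays, 517 to 1355 with 1 array left out, 3593 with the block, 3687 with the block and cyclic loess and 4761 with the block and the authors' table. Of the 79 named genes called in the main setting, each kept its call in 10 to 18 of at most 25 alternatives, and none changed direction. Fewer samples or a wider set of probes are part of how the settings with 0 calls are built; other causes were not tested. Median scaling moved the median log2 fold change of all genes to -0.03, against 0.05.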
